A study of Homo sapiens with 6 samples.

Results

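The 10 genes described here encode 9 digestive enzymes of the intestinal brush border and villin, the actin-bundling protein that shapes its microvilli. They were chosen by name: SI, LCT, TREH, ALPI, ANPEP, DPP4, MEP1A, MEP1B, ENPEP and VIL1. Every probe set whose only gene symbol was one of these names was taken, which gave 19 of the 54613 probe sets on the arrays and 10 of 19775 measured genes. The study hybridized total RNA of Caco-2, an established human line from a colorectal adenocarcinoma, to 6 arrays. In 3 arrays the cells had received a small interfering RNA (siRNA) against SDC1, which encodes the heparan sulfate proteoglycan syndecan-1, and in 3 they had received a negative control siRNA. All groups share the line, and the sources used here give neither the time after transfection nor how long the cells had been confluent. The series calls its replicates independent without saying whether they were separate cultures, so the spread behind each p-value may be only technical.

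The brush border is the apical surface of the absorptive enterocyte, where dense microvilli carry the enzymes that complete the digestion of sugars and peptides. Most of these enzymes are anchored in the apical membrane with their catalytic part in the gut lumen. Caco-2 cells are known for forming such a surface in culture, and sucrase-isomaltase, alkaline phosphatase, aminopeptidase N, dipeptidyl peptidase 4 and villin are common markers of that differentiation. The transcription factors CDX2, HNF1 and GATA4 are known to act on promoters of several of these genes.

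RefSeq promoter sequences (GRCh38.p14) were found for 7 of the 10 genes at 8 start sites, with 2 for ANPEP. Of these, 4 are shown, each the 250 bases before the start read 5′ to 3′, because they belong to the genes the results turn on: SI, the classical differentiation marker, ENPEP, the member with the lowest p, and ANPEP and ALPI, which followed each other across the arrays. Capitals mark TTTAT or ATAAA (letters of a CDX-type site on either strand), GTTAAT or ATTAAC (letters found in HNF1 sites) and GATAA or TTATC (letters of a GATA site). The windows are chr3:165078497-165078746 (minus strand) for SI, chr4:110475905-110476154 (plus strand) for ENPEP, chr15:89806629-89806878 (minus strand) for the downstream ANPEP start and chr2:232455903-232456152 (plus strand) for ALPI.
SI: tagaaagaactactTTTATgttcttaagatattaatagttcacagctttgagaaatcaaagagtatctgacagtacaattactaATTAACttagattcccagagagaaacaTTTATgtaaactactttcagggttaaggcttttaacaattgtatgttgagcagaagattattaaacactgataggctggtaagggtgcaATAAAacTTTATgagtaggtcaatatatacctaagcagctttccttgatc
ENPEP: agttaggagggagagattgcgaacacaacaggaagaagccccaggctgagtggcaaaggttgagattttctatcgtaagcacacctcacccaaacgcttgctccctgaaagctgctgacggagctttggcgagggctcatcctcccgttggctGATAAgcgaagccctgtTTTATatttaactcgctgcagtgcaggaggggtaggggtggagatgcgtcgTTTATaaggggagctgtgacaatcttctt
ANPEP: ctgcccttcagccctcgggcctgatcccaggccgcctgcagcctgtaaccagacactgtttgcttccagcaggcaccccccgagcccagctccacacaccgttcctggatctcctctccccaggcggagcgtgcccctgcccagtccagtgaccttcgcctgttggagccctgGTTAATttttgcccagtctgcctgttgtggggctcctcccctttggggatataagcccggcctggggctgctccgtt
ALPI: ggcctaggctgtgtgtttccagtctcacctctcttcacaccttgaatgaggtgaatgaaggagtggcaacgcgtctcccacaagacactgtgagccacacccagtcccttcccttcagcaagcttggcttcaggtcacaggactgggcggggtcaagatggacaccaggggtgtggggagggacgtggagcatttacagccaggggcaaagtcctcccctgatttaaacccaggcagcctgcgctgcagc
The SI window held the CDX-type letters at 4 places, the first bases lying 236, 139, 50 and 43 bases before the start, and the HNF1-type letters once, 166 bases before it. The ENPEP window held CDX-type letters 80 and 29 bases before the start, the latter within the letters TTTATA, and GATA letters 97 bases before it. The ANPEP window shown held the HNF1-type letters 77 bases before the start, and the ALPI window held none of the 3 motifs. Over 35116 windows of this length, 32.7% held the CDX-type letters, 6.23% the HNF1-type letters and 20.4% the GATA letters. Among the 8 windows of these genes the counts were 3 (SI, ENPEP and MEP1B), 2 (SI and ANPEP) and 1 (ENPEP). Such a match describes letters and is no evidence of binding.

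Each deposited value was a log2 signal from which the 6-array median of that probe set had been taken, so levels could not be compared between genes. A rough brightness was read from the steps in which the numbers were stored, which place a probe set at log2 signals of 8 to 16, 4 to 8 or below 4. Of the 19 probe sets, 2 (both of ENPEP) fell at 8 to 16, 6 at 4 to 8 and 11 below 4. Over all 54675 probe sets, controls included, the counts were 9445, 24721 and 20509. By the brightest probe set of each gene they were 5978, 9081 and 4716 of 19775 genes. All probe sets of SI, LCT, TREH, ANPEP, MEP1A and MEP1B were in the dimmest class. Probe sets with arrays on both sides of a bound count in the lower class, and no detection call could be made. A gene's value is the average of those of its probe sets that share its brightest class. In the same arrays SDC1 differed by -0.84 ± 0.08 (log2, standard error; limma adjusted p = 0.0238 over 19775 genes). That call was lost with any of the 6 arrays left out (limma adjusted p from 0.0615 to 0.326). The replicate block (0.0929) and quantile normalization (0.0831) also lost it. It held with array weights (0.0118), the robust fit (0.0337), arrays centred on their medians (0.0291) and all probe sets averaged (0.0239). It also held without probe sets ending in _x_at or _s_at (0.0332) and without the dimmest class (0.0152). With an array left out the SDC1 difference stayed between -0.92 and -0.78. Each of the 2 SDC1 probe sets tested singly had a limma adjusted p = 0.121, where 0 of 54613 probe sets passed. Of 8 epithelial markers, EPCAM, KRT8, KRT18 and KRT19 lay at 8 to 16, while CDH17, FABP1, APOA1 and KRT20, which mark intestinal cells, lay in the dimmest class. None of the 8 passed (limma adjusted p at least 0.684; 0 at an unadjusted p under 0.05), and their median difference was 0.03.

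None of the 10 brush border genes passed the test between SDC1 siRNA and control siRNA. In the limma fit with Benjamini-Hochberg adjustment over all genes the lowest adjusted p was 0.496 (ENPEP), and 0 of 10 passed 0.05, against 0.0253% of all genes. At an unadjusted p under 0.05 the count was also 0 of 10, against 10.6% of all genes. In 0 of 10 did the 3 arrays of one group lie apart from the 3 of the other, against 16.7% of all genes. The differences were above 0, that is higher with SDC1 siRNA, in 8 genes and below 0 in 2, against 52.1% above 0 among all genes. They ran from -0.06 for DPP4 to 0.24 for ENPEP with a median of 0.09, where all genes had a median of 0.01. In RNA from a whole culture, a change in the number of differentiated cells and one in RNA per cell cannot be told apart.

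**Figure D1:**
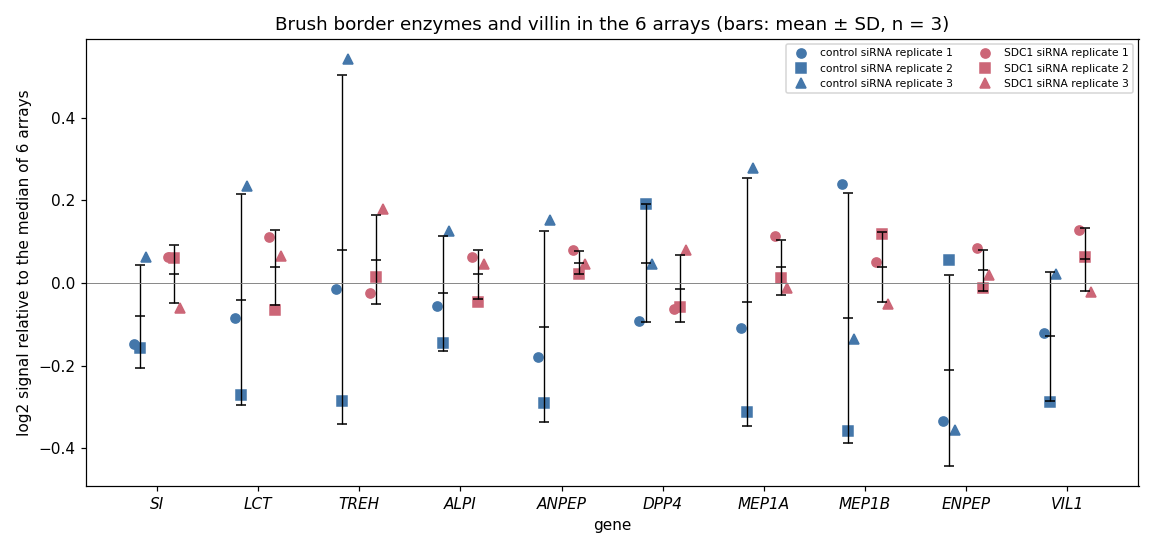
Log2 signal of each of the 10 genes (x axis) relative to its median over the 6 arrays (y axis); blue marks control siRNA, red SDC1 siRNA, marker shapes the replicate numbers, and bars the mean ± SD of 3 arrays. In every gene the groups overlap, and the control arrays spread more widely than the SDC1 siRNA arrays.

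The disaccharidases hydrolyse dietary sugars at the cell surface. SI, sucrase-isomaltase, cleaves sucrose and the branch points and ends of starch fragments. Its log2 signal was -0.15, -0.16 and 0.06 in control replicates 1, 2 and 3 and 0.06, 0.06 and -0.06 in SDC1 siRNA replicates 1, 2 and 3. Control replicates 1 and 2 were the lowest arrays and control replicate 3 lay among the SDC1 siRNA arrays. The difference of 0.10 ± 0.08 (standard error) had a limma adjusted p = 0.72, and its 95% interval ran from -0.09 to 0.29. It was at 0.06 without control replicate 2 and at 0.17 without control replicate 3. LCT, lactase, which splits milk sugar, was at -0.08, -0.27 and 0.23 in the controls and at 0.11, -0.07 and 0.07 with SDC1 siRNA. Both the lowest and the highest array were controls, and the 3 SDC1 siRNA arrays lay between them. The difference in LCT was 0.08 ± 0.12 with an interval from -0.21 to 0.36 (limma adjusted p = 0.874). TREH, trehalase, which splits the fungal and insect sugar trehalose, was at -0.02, -0.29 and 0.54 in the controls and at -0.02, 0.02 and 0.18 with SDC1 siRNA. Control replicate 3 alone lay far above the rest. The difference in TREH was -0.02 ± 0.18, and its interval from -0.44 to 0.40 was the widest of the 10. Without control replicate 3 TREH turned to 0.21 (limma adjusted p = 0.481).

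ALPI is the intestinal alkaline phosphatase, which removes phosphate groups from bacterial lipopolysaccharide among other substrates. Over its 2 probe sets the signal was -0.06, -0.15 and 0.13 in the controls and 0.06, -0.05 and 0.05 with SDC1 siRNA. The control arrays again enclosed the SDC1 siRNA arrays. The difference was 0.05 ± 0.09 (interval -0.15 to 0.24, limma adjusted p = 0.899). The 2 probe sets did not follow each other: 207140_at ran from -0.26 to 0.26 over the controls, while 211618_s_at ran from -0.03 to 0.03. Their correlation over the 6 arrays was 0.13. The suffix _s_at marks a probe set that can match transcripts of several genes, and the alkaline phosphatases of placenta and germ cells are close relatives of ALPI, so the second value is uncertain.

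The peptidases trim peptides from either end or within the chain. ANPEP, aminopeptidase N (CD13), removes neutral amino acids from the amino terminus. Over its 3 probe sets it was at -0.18, -0.29 and 0.15 in the controls and at 0.08, 0.02 and 0.05 with SDC1 siRNA. In this average the SDC1 siRNA arrays lay close together, and the controls lay on both sides of them. The difference was 0.16 ± 0.11 (interval -0.10 to 0.41, limma adjusted p = 0.675). ANPEP was at 0.26 without the probe set of shared type, 202888_s_at, which by itself was at -0.06. The largest difference among all 19 probe sets was in 234576_at of ANPEP (0.36 ± 0.21), where control replicate 2 was at -0.82 and the other 5 arrays lay between -0.09 and 0.22. Without control replicate 2 that probe set was at 0.08.

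ENPEP, aminopeptidase A, removes acidic amino acids and converts angiotensin II to angiotensin III. It was the only member in the brightest class and had the lowest p of the 10. Its signal was -0.33, 0.05 and -0.36 in control replicates 1, 2 and 3 and 0.09, -0.01 and 0.02 with SDC1 siRNA. Control replicates 1 and 3 lay clearly below the SDC1 siRNA arrays, and control replicate 2 lay among them. The difference was 0.24 ± 0.11, a 1.18-fold higher signal, with an interval from -0.01 to 0.50 (limma adjusted p = 0.496). Both probe sets gave the same picture, at 0.26 ± 0.13 and 0.22 ± 0.11, with a correlation of 0.95 over the 6 arrays. Without control replicate 2, the control that overlapped, the SDC1 siRNA arrays all lay above the remaining controls, as in 14.5% of all genes. The ENPEP difference was then 0.38 (limma adjusted p = 0.191), which still did not pass. The exact two-sided permutation test gave p = 0.3, where 0.1 is the smallest value that 3 arrays against 3 allow.

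DPP4, dipeptidyl peptidase 4 (CD26), removes dipeptides that end in proline or alanine and inactivates the incretin hormones. It was at -0.09, 0.19 and 0.05 in the controls and at -0.06, -0.06 and 0.08 with SDC1 siRNA. Control replicate 2, the lowest array for most members, was here the highest. The difference was -0.06 ± 0.09 (interval -0.27 to 0.14, limma adjusted p = 0.857), the lowest of the 10. Of its 3 probe sets, all at 4 to 8, 203716_s_at was at 0.04, 203717_at at -0.12 and 211478_s_at at -0.11. The first and second correlated at 0.84 over the arrays and the third with neither (-0.16 and -0.05).

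MEP1A and MEP1B encode the alpha and beta subunits of meprin, a zinc endopeptidase that cleaves peptides within the chain. MEP1A was at -0.11, -0.31 and 0.28 in the controls and at 0.11, 0.01 and -0.01 with SDC1 siRNA. It had the same order of controls as LCT, with replicate 2 lowest and replicate 3 highest. MEP1B was at 0.24, -0.36 and -0.14 in the controls and at 0.05, 0.12 and -0.05 with SDC1 siRNA. Here control replicate 1 was highest and control replicate 2 lowest. The differences were 0.09 ± 0.14 for MEP1A (interval -0.23 to 0.40) and 0.12 ± 0.14 for MEP1B (interval -0.19 to 0.44), with limma adjusted p = 0.875 and 0.803. The correlation of the 2 subunit transcripts over the 6 arrays was 0.26.

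VIL1, villin, bundles the actin filaments in the microvillus core and can also sever them. By its probe set at 4 to 8, 1554943_at, it was at -0.12, -0.29 and 0.02 in the controls and at 0.13, 0.06 and -0.02 with SDC1 siRNA. Control replicates 1 and 2 were the lowest arrays, and control replicate 3 lay between SDC1 siRNA replicates 2 and 3. The difference was 0.19 ± 0.09, a 1.14-fold higher signal, with an interval from -0.03 to 0.40 (limma adjusted p = 0.523). The 3 dimmer probe sets of VIL1 pointed in different directions. 205506_at was at 0.29 ± 0.15, with SDC1 siRNA replicate 1 alone at 0.48. 1554945_x_at was at -0.06 ± 0.12 and 228912_at at -0.14 ± 0.11, both nearly flat over the SDC1 siRNA arrays. Without control replicate 3 they were at 0.0043 and -0.02, and 1554945_x_at was at -0.00033 without control replicate 1. The mean of all 4 gave 0.07 for the gene (limma adjusted p = 0.849), so the value of VIL1 depends on which probe set stands for it.

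**Figure D2:**
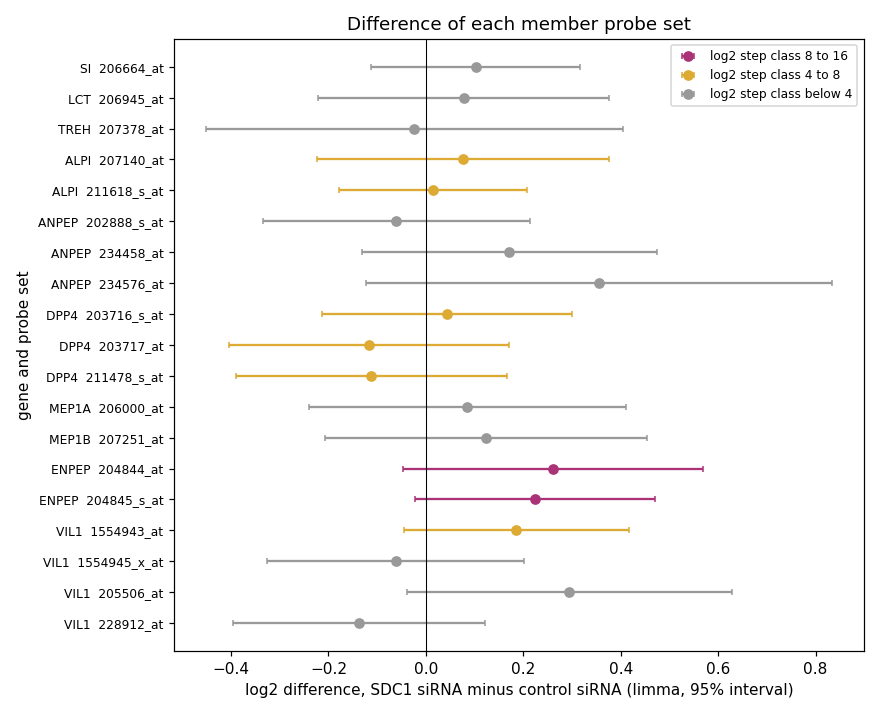
Log2 difference (x axis, SDC1 siRNA minus control siRNA, with the 95% interval of the limma fit) for each of the 19 probe sets (y axis), coloured by brightness class. Every interval includes 0, and the probe sets of ANPEP, DPP4 and VIL1 lie on both sides of it.

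Tested singly among 54613 probe sets, 0 of the 19 passed an adjusted p of 0.05 in limma (0% of all probe sets), and 0 reached an unadjusted p under 0.05 (8.33% of all). The groups separated in 0 of 19, against 14.5% of all probe sets. Of the 19 differences 13 were above 0, or 6 below, where 50.2% of all probe sets were above 0. Within genes, 14 pairs of probe sets could be set against each other. The exact two-sided permutation test of the difference between probe sets reached p = 0.1, the smallest value possible, in 5 pairs, 4 of VIL1 and 1 of DPP4 (Benjamini-Hochberg adjusted p = 0.28 each). In VIL1 the signal of 1554943_at minus that of 228912_at was -0.16, -0.26 and -0.35 in the controls and 0.14, 0.05 and 0.01 with SDC1 siRNA. That exact test cannot pass 0.05 with 3 arrays against 3. A limma fit of the same differences over all 42435 pairs of probe sets of 1 gene, added after the values were seen, can. It put 3 of the 14 pairs, all of VIL1, at an unadjusted p under 0.05, against 6.33% of all pairs, and 0 of 14 passed after adjustment (0% of all pairs; lowest limma adjusted p = 0.728, 1554943_at minus 228912_at, 0.32 ± 0.12). The pairs of a gene share probe sets and are not independent.

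What the members shared at the gene level was a wider spread among the control arrays than among the SDC1 siRNA arrays. The standard deviation over 3 control arrays was larger than that over 3 SDC1 siRNA arrays in 10 of 10 genes, against 60.2% of all genes. Among single probe sets it was larger in 16 of 19, against 58.8% of all probe sets, and smaller in 211618_s_at of ALPI, 211478_s_at of DPP4 and 205506_at of VIL1. At the gene level its median was 0.23 with control siRNA and 0.07 with SDC1 siRNA. Over all genes the medians were 0.11 and 0.09, and over genes of the dimmest class 0.13 and 0.11. The control spread of SI (SD 0.12, n = 3) lay below the control median of that class, which is its own. TREH had the widest controls (SD 0.42, n = 3, against 0.11 with SDC1 siRNA). ANPEP had the tightest SDC1 siRNA arrays at the gene level (SD 0.03, n = 3, against 0.23 in the controls). That value averages 3 probe sets, none of them tight alone. Their SDs over the SDC1 siRNA arrays were 0.135 (202888_s_at), 0.107 (234458_at) and 0.141 (234576_at). Without control replicate 2 the control spread, then over 2 arrays, was larger in 9 of 10 members and 42.7% of all genes. Without control replicate 3 it was larger in 9 of 10 members and 50.9% of all genes. These are descriptions over genes of the same arrays, and whether the groups differ in spread was not tested.

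**Figure D3:**
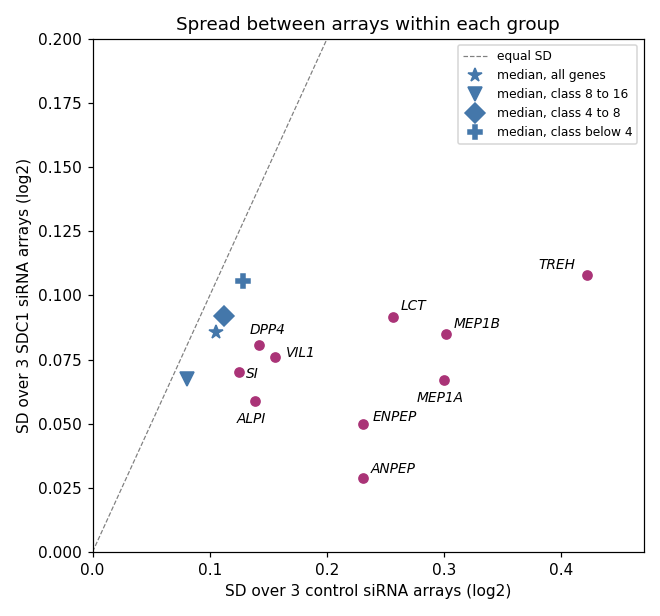
Standard deviation over 3 control siRNA arrays (x axis, log2) against that over 3 SDC1 siRNA arrays (y axis, log2; the axes have different scales). Purple points are the 10 genes, blue marks the medians over all genes and over the brightness classes, and the dashed line equal spread; all 10 genes lie below the line.

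Control replicate 2 held the lowest of the 6 values in 8 of 10 members, where it did so in 24.6% of all genes and 33.1% of those in the dimmest class. Control replicate 3 held the highest in 5 of 10, against 16.6% of all genes and 22.5% of those in the dimmest class. The median of the 10 genes was -0.10, -0.28 and 0.09 in control replicates 1, 2 and 3 and 0.07, 0.01 and 0.03 in SDC1 siRNA replicates 1, 2 and 3. Control replicate 2 also had the widest values over all genes (SD 0.17, against 0.11 to 0.14 in the other arrays) and the lowest array weight (0.47). Without it, 5 members were above 0 and 5 below, their median being 0.00, and LCT, ALPI, MEP1A, MEP1B and DPP4 changed sign. ANPEP was then at 0.06 and VIL1 at 0.11. Without control replicate 3, 9 of 10 were above 0 and the median was 0.19. The groups then separated with higher SDC1 siRNA arrays in SI, LCT, ALPI, ANPEP, MEP1A and VIL1, that is 6 of 10, against 15.3% of all genes in that direction. The array left out there was itself the highest in 5 of 10 members, so this count is no independent evidence. No member passed in either fit. Without control replicate 1, 8 members were above 0 and 2 below, and the median was 0.06. Separation with higher SDC1 siRNA arrays was then seen in 1 of 10 (MEP1B), against 13.4% of all genes. Without control replicate 2 it was also seen in 1 of 10 (ENPEP), against 14.5%. With an SDC1 siRNA array left out the median was 0.06 to 0.13. The direction of the members as a group therefore rests on control replicate 2, and its size also on control replicate 3.

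Across the 6 arrays a block of members rose and fell together, within the small number of arrays and the deviating controls that they share. The correlation between LCT and ALPI was 0.997, and ALPI was the gene closest to LCT among all 19774 others. ANPEP, MEP1A and TREH followed them, with correlations to LCT of 0.93, 0.96 and 0.88. The ANPEP value averages 3 dim probe sets that correlated with each other at only 0.43, 0.15 and 0.12, as the ALPI value averages 2 at 0.13. SI and VIL1 were closest to each other among the members (0.90). Of the 45 pairs, 14 had a correlation above 0.8 and 14 one below 0. The matching shares over pairs of all genes were not computed. ENPEP and DPP4 stood outside this block, with correlations to LCT of -0.34 and -0.32, and MEP1B ran opposite to DPP4 (-0.95). Among the members LCT, ALPI, ANPEP and MEP1A exceeded 0.9 with each other, and SI with VIL1, and no other pair did. Many genes outside the list also exceeded it: between 0.941% and 2.02% of all genes did so with a given member, 207 genes for LCT alone. Whether member pairs exceed 0.9 more often than other pairs was not tested. After removal of the group means LCT and ALPI still correlated at 0.997 and ANPEP and MEP1A at 0.99, so the pattern lay within the groups. The genes most like ENPEP over the 6 arrays were CYB5B (0.995), a cytochrome b5 of the outer mitochondrial membrane, CNTN6 (0.993), a contactin, and RAB18 (0.988), a small GTPase of lipid droplets and the endoplasmic reticulum.

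**Figure D4:**
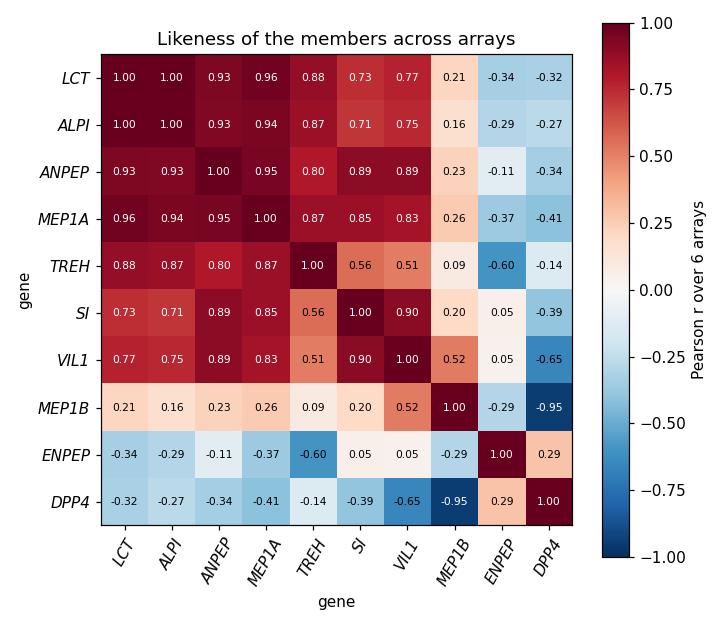
Pearson correlation over 6 arrays for each pair of the 10 genes (rows and columns; red positive, blue negative). LCT, ALPI, ANPEP, MEP1A and TREH form a block of 0.80 to 0.997 joined by SI and VIL1, while MEP1B, ENPEP and DPP4 stand apart.

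Other genes of the brush border were read from 5 lists, and none of their members passed over all genes in limma, the lowest adjusted p being 0.115. Of 12 measured brush border hydrolases besides the members, 5 were above 0 and 7 below, and the median was -0.02. At an unadjusted p under 0.05 there was 1, against 10.6% of all genes. These were led by XPNPEP2, a membrane aminopeptidase that releases residues before proline, at 0.35 ± 0.15 (limma adjusted p = 0.461), and ENPP3, an ectonucleotidase, at 0.31 ± 0.14. In ENPP3 control replicate 2 was at -0.60, apart from the other 5 arrays at -0.11 to 0.13, and without it ENPP3 was at 0.13. Of 19 microvillus scaffold and adhesion genes, which include villin's partners in bundling and tethering actin, 10 were above 0 and 9 below, and the median was 0.03. EPS8, which caps and bundles actin at microvillus tips, was at -0.18 ± 0.06 and the actin nucleator COBL at 0.16 ± 0.07 (limma adjusted p = 0.374 and 0.455). They were the only 2 of the 19 at an unadjusted p under 0.05 and the only 2 whose arrays separated, shares no higher than the 10.6% and 16.7% of all genes.

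Paralogs of the members share their ancestry but mostly act elsewhere in the cell or body. Of 23 measured paralogs, 7 were at an unadjusted p under 0.05, 3 higher and 4 lower, against 10.6% of all genes, and 0 passed after adjustment. In 7 of the 23 the groups did not overlap, some higher and some lower, against 16.7% of all genes. DPP6, a catalytically inactive relative of DPP4 that modulates potassium channels, was at -0.14, -0.28 and -0.30 in the controls and at 0.22, 0.14 and 0.18 with SDC1 siRNA. The groups did not overlap in DPP6, and its difference was 0.42 ± 0.07 (limma adjusted p = 0.115), or 0.18 with all 3 of its probe sets averaged. ERAP2, an aminopeptidase of the endoplasmic reticulum related to ANPEP, was at -0.48 ± 0.12 (limma adjusted p = 0.251), or -0.22 over all its probe sets. The median of the paralogs was 0.04.

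For the 12 genes of apical delivery, which carry enzymes to the microvillus membrane, 6 were above 0 and 6 below, and the median was 0.02. At an unadjusted p under 0.05 there was 1, against 10.6% of all genes. In 5 of the 12 the groups did not overlap, some higher and some lower, against 16.7% of all genes. STXBP2, the syntaxin-binding protein Munc18-2, was at 0.26 ± 0.07 (limma adjusted p = 0.26) and its arrays separated, but it was at 0.08 over both its probe sets. MYO5B, the motor whose loss causes microvillus inclusion disease, was at -0.15 ± 0.08 with separate groups (limma adjusted p = 0.543), or -0.09 without control replicate 2. Of 10 measured regulators, 6 were above 0 and 4 below, and the median was 0.08. GATA4, one of the factors named above, was at -0.06, -0.34 and -0.03 in the controls and at 0.19, 0.16 and 0.15 with SDC1 siRNA. The groups did not overlap in GATA4, and its difference was 0.31 ± 0.09 (limma adjusted p = 0.313). Over all 5 of its probe sets it was at 0.08. GATA5 was at 0.15 ± 0.08, and 1 of the 10 regulators was at an unadjusted p under 0.05, a share like the 10.6% of all genes. In 3 of the 10 regulators the groups did not overlap, some higher and some lower, against 16.7% of all genes.

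**Figure D5:**
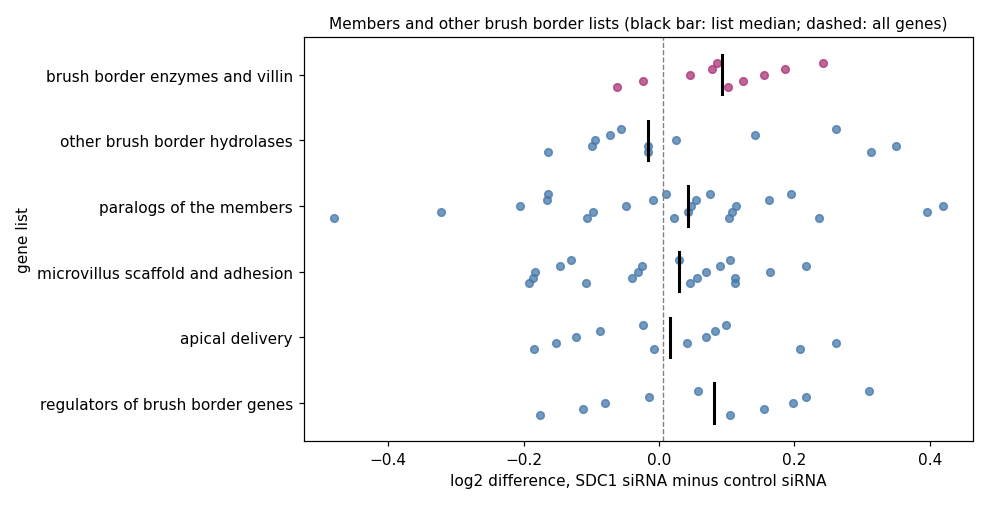
Log2 difference (x axis, SDC1 siRNA minus control siRNA) of each gene (points) in the 10 members, in purple, and 5 further lists, in blue (y axis). Black bars are the list medians, from -0.02 to 0.09, and the dashed line is the median of all genes, 0.01.

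Markers of other cell types were read beside these values. Of 6 goblet and Paneth cell markers 2 were at an unadjusted p under 0.05, of 2 enteroendocrine markers 0, of 6 fibroblast markers 4, of 3 leukocyte markers 1 and of 3 endothelial markers 2, where 10.6% of all genes were. None passed after adjustment in limma (lowest adjusted p = 0.159, COL1A2). The fibroblast markers went both ways, from -0.62 to 0.37, and the endothelial ones were above 0, from 0.10 to 0.37. All 6 fibroblast and all 3 endothelial markers lay above the dimmest class, with COL1A1, COL1A2 and VWF in the brightest. So did 4 of the 6 goblet and Paneth, 2 of the 3 leukocyte and 0 of the 2 enteroendocrine markers. The intestinal markers CDH17, FABP1, APOA1 and KRT20 and 6 of the 10 brush border genes lay in the dimmest class. So did 4716 of all 19775 genes. A gene's class is that of its brightest probe set, so a gene with more probe sets has more occasions to reach a higher class. DCN had 7 probe sets and COL1A1 5, but PDGFRB and CDH5 only 1 each. SI, LCT, TREH, MEP1A and MEP1B had 1 each and ANPEP 3. Whether the classes follow the amount of each RNA was not tested. The part of these other cell types in the values of the brush border genes was not tested either.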

How the data were processed

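Expression was measured on Affymetrix arrays in 6 samples, grouped and numbered by their titles. Per the submitters' processing notes the authors used RMA (version not given in the sources used here), and the deposited values are log2, as read from their stored steps. They are centred: every one of 54675 probe sets had a median of 0 across its 6 values (tolerance 1e-06). Stored steps (tolerance 0.15 of a step) gave the brightness classes. Names came from the platform annotation, with symbols updated through RefSeq: 41091 had 1 symbol, 1801 several and 11721 none, and 62 control probe sets were left out. Gene values are means over the probe sets in a gene's brightest class.

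The groups were tested by limma 3.58.1 (lmFit, eBayes, group as the only term; R 4.3.3), adjusted by Benjamini-Hochberg over all 19775 genes or 54613 probe sets, threshold 0.05; the fit was checked on simulated data. Members, lists and tests were chosen with earlier results of these data known. Named genes were the members, SDC1, up to 2 genes with the lowest p per list, the 3 genes most like the leading member, and markers. The sources used here name no batch. The number of arrays limits the precision. As alternatives, arrays were left out in turn, weighted, centred on their medians or quantile normalized, and a replicate block, a robust fit, other probe set rules, a filter on the dimmest class and an adjusted p of 0.01 were tried. Same-numbered arrays did not deviate together (correlations -0.01, -0.26 and -0.11).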

Additional observations from a re-analysis of the deposited data

How the results depend on the processing

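The count of 0 member genes past the threshold held under every alternative run, as did 0 in each of the 5 further lists, and the lowest adjusted p of a member was 0.103 (ENPEP, robust fit). The count over all genes, 5 as reported, was 0 with the replicate block, 39 with array weights, 3 with the robust fit, 3 when all probe sets of a gene were averaged, 11 without the dimmest class, 0 at an adjusted p of 0.01, and 0 to 1 with an array left out. The SDC1 difference was -0.84 with the replicate block (adjusted p = 0.0929), -0.90 after quantile normalization (0.0831) and -0.92 to -0.78 with an array left out (adjusted p from 0.0615 to 0.326). The SDC1 call held with array weights, the robust fit, arrays centred on their medians, the other probe set rules and the filter on the dimmest class. With an array left out, 7 of 60 member values changed sign. The ranges were -0.038 to 0.22 for LCT, -0.21 to 0.21 for TREH, -0.014 to 0.12 for ALPI, -0.13 to 0.0097 for DPP4, -0.047 to 0.25 for MEP1A and -0.013 to 0.29 for MEP1B, with the same values for the single probe sets of LCT, TREH, MEP1A and MEP1B. Probe sets ranged from -0.19 to 0.0043 for 1554945_x_at, -0.13 to 0.052 for 202888_s_at, -0.043 to 0.16 for 203716_s_at, -0.21 to 0.025 for 203717_at, -0.028 to 0.23 for 207140_at and -0.035 to 0.060 for 211618_s_at. TREH was at 0.071 with the robust fit, gene and probe set alike, and MEP1B at -0.00056 with array weights. List medians moved with an array left out, for other hydrolases from -0.042 to 0.076, paralogs from -0.0040 to 0.049, scaffold genes from -0.039 to 0.034, apical delivery from -0.013 to 0.031 and regulators from 0.050 to 0.11. The hydrolase median was 0.083 without the dimmest class. Without _x_at and _s_at probe sets it was -0.074 for scaffold genes, -0.088 for apical delivery and 0.10 for regulators. The cause of these shifts was not tested. The titles number the replicates without saying whether same-numbered arrays of the groups were paired. The replicate block changed no member's call.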
